A study of Mus musculus with 9 samples.

Results

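The genes described here are 47 mouse genes of DNA damage sensing and DNA repair, taken from a fixed list of gene symbols that covers 7 repair pathways. A gene was measured where the array annotation gives at least 1 probe set this symbol and no other, and its brightest probe set over all arrays stood for it. This held for 46 of the 47 genes, out of 18193 genes measured in all. Xrcc2, a partner in homologous recombination, has no such probe set and is not analysed here.

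The study profiled 3 sorted marrow populations of normal C57BL/6 mice, 4 to 10 weeks old and of either sex, for which the labels give no treatment and no engineered allele. Mac1- myeloblasts were c-kit+ Gr1+ Mac1lo/- cells, Mac1+ myeloblasts were c-kit+ Gr1+ Mac1+ cells, and neutrophils were c-kit- Gr1+ Mac1+ cells; both myeloblast sorts also left out cells bearing lymphoid or erythroid surface antigens. Each population has 3 arrays, made from RNA that was amplified over 2 cycles and hybridised to an Affymetrix mouse expression array. Whether the 3 arrays come from separate mice is not stated, so every p-value measures the spread between these samples only, which may be technical.

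DNA breaks are sensed by the MRN complex and the kinases ATM, ATR and DNA-PK, which signal through the checkpoint kinases CHK1 and CHK2. Breaks are rejoined either by homologous recombination, which copies an intact sister chromatid and so works mainly in cells that replicate their DNA, or by end joining, which needs no template and works throughout the cell cycle. The Fanconi anaemia pathway unhooks crosslinks between strands, mismatch repair corrects copying errors, base excision repair removes damaged bases through a single-strand nick, and nucleotide excision repair cuts out bulky lesions. In the marrow, myeloblasts divide, whereas neutrophils are short-lived cells that have left the cell cycle, and inherited loss of Fanconi genes is known for bone marrow failure.

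Levels are given as log2(intensity + 16), the deposited linear intensity with an offset of 16 added, and a difference is the difference of 2 population means on that scale. A gene counts as higher or lower where limma's moderated test in a model of all 9 arrays gave a Benjamini-Hochberg adjusted p under 0.05 over all 18193 genes. Levels of different genes come from different probes and are not compared. The sort markers matched their labels at the RNA level: Kit, the c-kit receptor, had mean log2 levels of 11.63, 11.71 and 7.84 in Mac1- myeloblasts, Mac1+ myeloblasts and neutrophils, and Itgam, the Mac1 chain, had 6.45, 9.69 and 11.55. One array stood apart: over all genes the first neutrophil array correlated with the other 2 at 0.926 and 0.940, against 0.986 between those, and its median intensity was 61.8 against 39.13 to 45.42 on the other 8 arrays. Calls of the repair genes that change without it are given beside the gene or its comparison.

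Most of the repair genes were lowest in neutrophils. Against Mac1+ myeloblasts, 37 of the 46 genes were lower in neutrophils, none was higher (0 also at an unadjusted p under 0.05) and 9 were not called. Over all genes tested, 28.4% were lower and 19.7% higher in that comparison. The median log2 difference of the 46 genes was -3.11, an 8.61-fold fall, against 0.05 over all genes. For 36 of the 46, every neutrophil array lay below every Mac1+ array, which held for 30.9% of all genes. Without the first neutrophil array, 38 were lower and 3 higher, against 31.5% and 22.5% of all genes. With limma's estimated array weights, 3 were also higher.

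All 46 genes lay above the 40th percentile of mean level over all arrays, and among such genes falls in neutrophils were common. Of the 10916 genes above it, 46.4% were lower in neutrophils than in Mac1+ myeloblasts. That mean includes the myeloblast arrays, so it does not show that a gene is well measured in neutrophils. Mean intensities of the 46 ran from 93.5 to 11690 in Mac1- myeloblasts, from 87.5 to 9564 in Mac1+ myeloblasts and from 11.7 to 3403 in neutrophils. In neutrophils 22 of the 46 were under an intensity of 100, where a further fall can hardly be measured. At or under the median intensity of at least 1 neutrophil array were 25 of the 46. Of these, 8 were so on all 3 arrays (Bard1, Brip1, Palb2, Rad51c, Fancc, Fancm, Exo1 and Xrcc5). The fold changes of genes this dim in neutrophils depend on the offset and give no order among them. In sorted bulk cells, fewer expressing cells and less RNA per cell cannot be told apart.

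Between the myeloblast populations few of the genes changed. Against Mac1- myeloblasts, 2 of the 46 genes were higher in Mac1+ myeloblasts (Xrcc5 and Xpc), 2 were lower (Parp1 and Ung) and 42 were not called. The background was 6.31% of all genes higher and 5.51% lower, so the members' share of calls was near that of all genes. Without the first neutrophil array, which enters through the shared estimate of spread, 6 were higher and 4 lower, but the shares of all genes rose as well, to 12.0% and 10.9%. The genes that gained a call there were, besides Wrn, Apex1 (-0.91, adjusted p = 0.00292), Fance (-0.61, adjusted p = 0.0499), Chek2 (0.43, adjusted p = 0.0214), Fancg (0.64, adjusted p = 0.0302) and Rad52 (0.57, adjusted p = 0.0498). Without any 1 Mac1- array, or without the first or the second Mac1+ array, the calls of both Parp1 and Ung were lost, and without the first Mac1+ array Prkdc was called lower (log2 difference -1.05, adjusted p = 0.0464). The median log2 difference was -0.17 over the 46 genes and -0.01 over all genes. Over the whole span, neutrophils against Mac1- myeloblasts, 38 genes were lower and 2 higher (Rad52 and Xpc), where 30% of all genes were lower and 22.6% higher. The 2 higher became 4 without the first neutrophil array and 1 without the second or the third Mac1- array. The comparisons share arrays, so they are not independent of each other.

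Read over both steps, 33 genes were not called between the myeloblasts and then fell in neutrophils. Parp1 and Ung fell at both steps. Xrcc5 rose in Mac1+ myeloblasts and then fell below its starting level, whereas Xpc rose and then fell without returning to it. Fance and Trp53bp1 were lower only over the whole span, and Rad52 was higher only over the whole span. Wrn, Fanca, Lig4, Ogg1, Ercc1 and Xpa were not called in any comparison of this model of all 9 arrays. Each was called in at least 1 comparison when a single array was left out, as given with each gene. With array weights, which keep all arrays, Wrn, Ogg1, Ercc1 and Xpa were also called in at least 1 comparison.

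**Figure D1:**
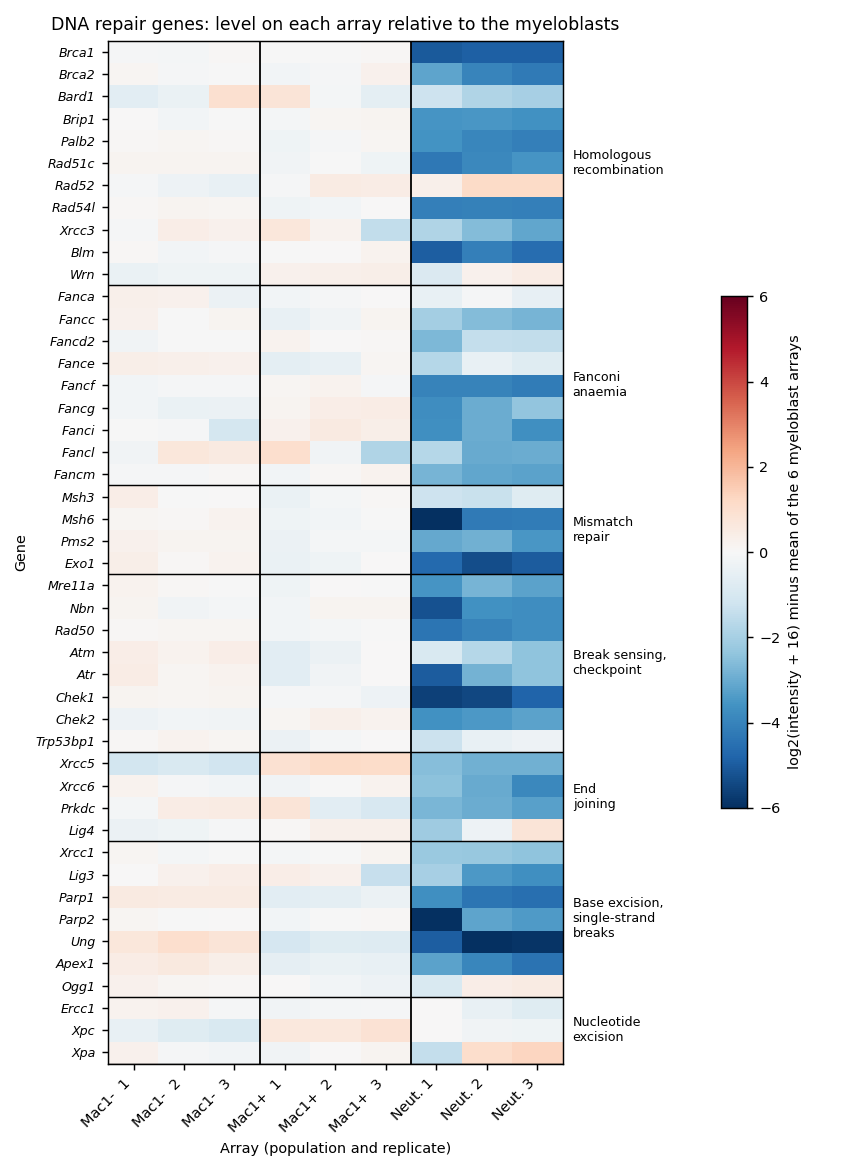
Heat map of the 46 measured DNA repair genes (rows, grouped by pathway) on the 9 arrays (columns); colour is log2(intensity + 16) minus the gene's mean over the 6 myeloblast arrays, on a scale from 6 below to 6 above. The 3 neutrophil columns are blue for most genes, and the rows of Rad52, Wrn, Fanca, Ogg1, Ercc1, Xpc and Xpa stay pale or turn red.

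Chek1, Ung and Brca1 had the largest fitted falls between Mac1+ myeloblasts and neutrophils among genes with a promoter entry, at the offset of 16. With an offset of 64 the order changes, and Msh6 (-4.23) falls more than Ung (-3.92). The last 100 bases before their first listed start are shown as examples of promoters of these genes, in RefSeq's GRCm38.p6 sequence, 5′ to 3′ on the gene's strand. Capitals mark a CCAAT box, a short element common in promoters of cell-cycle genes.
Chek1 (chr9:36726659-36726758, minus strand): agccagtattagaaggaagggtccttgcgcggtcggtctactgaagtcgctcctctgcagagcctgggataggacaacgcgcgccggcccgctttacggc
Ung (chr5:114130335-114130434, plus strand): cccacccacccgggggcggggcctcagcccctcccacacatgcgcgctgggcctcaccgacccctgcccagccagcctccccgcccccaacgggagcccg
Brca1 (chr11:101551956-101552055, minus strand): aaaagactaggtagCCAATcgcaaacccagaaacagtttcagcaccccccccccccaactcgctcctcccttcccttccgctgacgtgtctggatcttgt

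Promoters of 39 of the 46 genes were found, each searched over 250 bases before the start on both strands. An E2F-type match, which here means TTTCCCGC, TTTGGCGC, TTTCGCGC or TTTGCCGC, the kind of element bound by the E2F factors of the G1 to S transition, was present in 6 of the 39 (15.4%) and in 405 of the 14452 promoters of all tested genes (2.8%). All 6 belong to genes that were lower in neutrophils than in Mac1+ myeloblasts, which makes 6 of 31 such promoters (19.4%), against 0 of the 8 promoters of genes not called. A CCAAT box was present in 20 of 39 (51.3%) against 35.7% of all promoters, at like shares in the genes that were lower (51.6%) and in those not called (50%). The CHR element TTTGAA, known from promoters of genes of late cell cycle, was in 1 of 39 (2.56%) against 11.9% of all. These are letter matches, which do not show binding, and the 8 promoters of genes not called are too few to tell their shares from the others. The 6 E2F-type matches are shown in windows of 30 bases, chosen after the matches were known, with the match in capitals.
Brca2 (chr5:150522442-150522471, plus strand): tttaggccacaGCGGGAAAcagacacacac
Bard1 (chr1:71103163-71103192, minus strand): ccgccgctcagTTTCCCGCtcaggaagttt
Fancg (chr4:43010335-43010364, minus strand): tttcttttcagTTTCCCGCggaaccgtctc
Msh3 (chr13:92355187-92355216, minus strand): ttgccgtcaagTTTGGCGCGAAAtcgcagc
Chek2 (chr5:110839820-110839849, plus strand): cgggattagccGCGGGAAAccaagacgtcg
Xrcc6 (chr15:82016312-82016341, plus strand): agggggtggaaGCGGGAAAtgcgagtgggc
The matches begin 168, 209, 52, 202, 152 and 46 bases before the start of Brca2, Bard1, Fancg, Msh3, Chek2 and Xrcc6. In Msh3 2 matches on opposite strands overlap. The 6 genes fell by different amounts, with log2 differences from Mac1+ myeloblasts to neutrophils of -3.80 for Brca2, -1.70 for Bard1, -3.35 for Fancg, -0.96 for Msh3, -3.65 for Chek2 and -3.12 for Xrcc6.

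Of the break sensors and checkpoint kinases, 7 of 8 were lower in neutrophils than in Mac1+ myeloblasts, with a median log2 difference of -3.39 (-3.69 to -1.96 over the alternatives, the smallest with the mean of probe sets). Chek1, the kinase CHK1 that holds damaged or stalled cells in S and G2 phase, fell in neutrophils to near the bottom of the scale. Its log2 levels were 11.12, 11.09 and 11.14 in Mac1- myeloblasts, 10.90, 10.88 and 10.68 in Mac1+ myeloblasts, and 5.35, 5.49 and 6.16 in neutrophils. The myeloblast arrays lie within 1 log2 unit of each other and far above every neutrophil array. The log2 difference was -5.15 (SE 0.21), with an adjusted p of 1.55e-07. Its neutrophil intensities were 24.8, 28.8 and 55.7, and with offsets of 1 and 64 the difference was -5.67 and -4.22, so the size of the fall is not fixed by these data. Chek2, the CHK2 kinase downstream of ATM, had log2 levels of 10.37, 10.54 and 10.47 in Mac1+ myeloblasts and 6.60, 6.81 and 7.04 in neutrophils, a difference of -3.65 (SE 0.15, adjusted p = 1.61e-07).

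The MRN complex, which binds broken ends, fell as a whole. Nbn, its signalling subunit, had a log2 difference of -4.23, Rad50, its tethering ATPase, of -3.94, and Mre11a, its nuclease, of -3.09, with adjusted p values of 1.56e-05, 2.35e-07 and 2.04e-06. In neutrophils Nbn read log2 4.71 on the first array and 6.31 and 6.20 on the others, so its size depends on which arrays are read, while all 3 stayed below the lowest Mac1+ array at 9.76. The upstream kinases differed in size on their brightest probe sets. Atr, which answers to single-stranded DNA at stalled forks, had a log2 difference of -3.14 (SE 0.57, adjusted p = 0.00144), and Atm, which answers to double-strand breaks, had -1.35 (SE 0.35, adjusted p = 0.0104). Atr read log2 5.20 on the first neutrophil array against 7.35 and 7.76 on the others, whereas Atm read 7.82 there against 7.01 and 6.29. A second probe set of Atm gave a larger log2 difference of -3.03. Dimmer probe sets of Atr gave -0.92 (adjusted p = 0.0258 over all probe sets) and -0.28 (not called). The order of Atr and Atm thus depends on the probe set. Trp53bp1, the 53BP1 protein that steers breaks to end joining, was less changed: its log2 levels were 10.45, 10.71 and 10.83 in Mac1+ myeloblasts and 9.54, 10.36 and 10.50 in neutrophils, which overlap, and the difference of -0.53 was not called (adjusted p = 0.109). It was lower than in Mac1- myeloblasts by 0.83 on the log2 scale (adjusted p = 0.0195), a call lost without the second or the third Mac1- array (adjusted p = 0.0616 and 0.0519) and with the mean of its probe sets (log2 difference -0.19, adjusted p = 0.324).

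Homologous recombination showed deep falls with 2 exceptions. Of its 11 measured genes, 9 were lower in neutrophils than in Mac1+ myeloblasts, with a median log2 difference of -3.72 (-4.14 to -2.53 over the alternatives, the smallest with an offset of 64). Brca1, the scaffold that promotes end resection, read log2 10.83, 10.83 and 10.92 in Mac1+ myeloblasts and 5.78, 5.94 and 5.92 in neutrophils. Replicates of either population differed by far less than the populations did, and the log2 difference was -4.98 (SE 0.13, adjusted p = 4.01e-08), or -5.39 and -4.16 with offsets of 1 and 64. Its other probe sets were dimmer. A pair of them also fell, and 1 rose by 1.72 on the log2 scale (adjusted p = 0.00464 over all probe sets), from a mean log2 level of 5.79 to 7.51. Brca1's partners followed in the same direction: Palb2, which links BRCA1 to BRCA2, by -3.79 on the log2 scale, Brca2, the loader of the recombinase, by -3.80, Brip1, a BRCA1-bound helicase, by -3.61, and Bard1, its heterodimer partner, by -1.70 (adjusted p = 0.0149).

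Bard1 was the least even of these. Its log2 levels were 6.33, 6.56 and 7.94 in Mac1- myeloblasts, 7.72, 6.83 and 6.38 in Mac1+ myeloblasts and 5.70, 5.15 and 4.96 in neutrophils. The third Mac1- array and the first Mac1+ array were over 1 log2 unit above the mean of their replicates, and without the latter the neutrophil difference was -1.33 and no longer called (adjusted p = 0.056). Blm, the helicase that dissolves joined chromosomes, fell by 4.60 on the log2 scale (SE 0.21), Rad54l, a motor that remodels the recombinase filament, by 3.96 (SE 0.13) and Rad51c, a recombinase paralog, by 3.72 (SE 0.20), each with neutrophil arrays clear of the myeloblast arrays. Xrcc3, a second paralog, fell by 2.30 (SE 0.54, adjusted p = 0.0061), and the third of its Mac1+ arrays, at log2 8.14, lay near the first neutrophil array at 7.82 while the other Mac1+ arrays were at 10.31 and 9.82. A dimmer probe set of Xrcc3 fell by 3.62 (adjusted p = 1.13e-06 over all probe sets).

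Rad52, which anneals single strands, went the other way. Its log2 levels were 7.54, 7.28 and 7.16 in Mac1- myeloblasts, 7.54, 8.10 and 8.05 in Mac1+ myeloblasts, and 7.92, 8.78 and 8.76 in neutrophils. Every neutrophil array was above every Mac1- array, by a log2 difference of 1.16 (SE 0.27, adjusted p = 0.00505). Against Mac1+ myeloblasts the populations overlap and the difference of 0.59 was not called (adjusted p = 0.0988). Without the first neutrophil array it was 0.88 and called (adjusted p = 0.00501), as it was after quantile normalization (adjusted p = 0.0446), and the gene's second probe set rose by 1.52 (adjusted p = 0.00206 over all probe sets). Wrn, the Werner helicase, read log2 9.84, 9.89 and 9.92 in Mac1+ myeloblasts and 8.72, 9.86 and 10.03 in neutrophils. The second and the third neutrophil arrays sat at the Mac1+ level and only the first was lower, so that the difference of -0.35 (SE 0.30) was not called. Without that array Wrn was called higher in Mac1+ than in Mac1- myeloblasts (log2 difference 0.61, adjusted p = 0.00316) and higher in neutrophils than in Mac1- myeloblasts (0.67, adjusted p = 0.000903), whereas with all arrays these were 0.61 and 0.26 and not called.

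**Figure D2:**
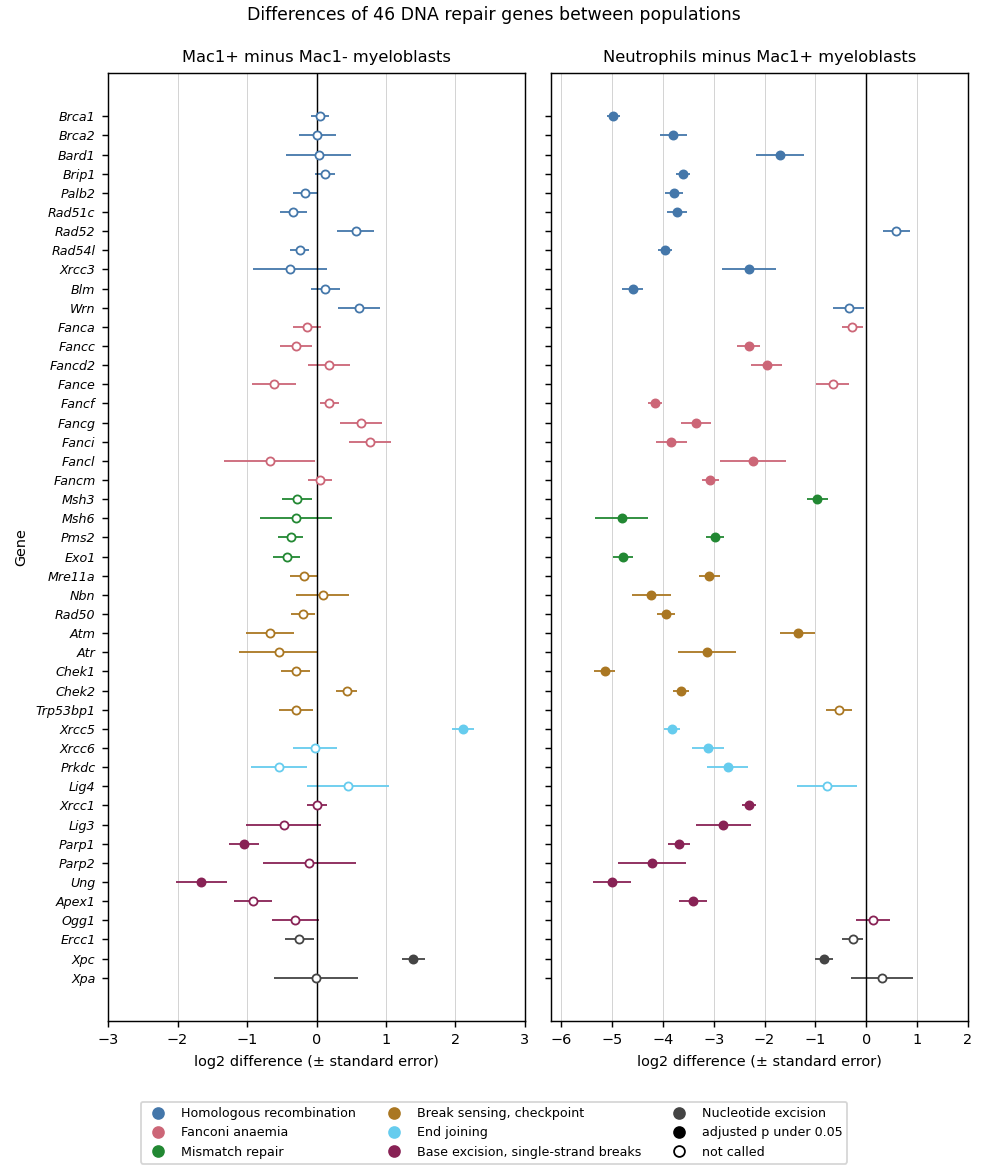
Log2 differences of the 46 genes between Mac1+ and Mac1- myeloblasts (left) and between neutrophils and Mac1+ myeloblasts (right), coloured by pathway; bars are standard errors of the 9-array model, filled points have an adjusted p under 0.05 and the horizontal ranges of the panels differ. On the left all but Xrcc5, Xpc, Parp1 and Ung are open, and on the right 37 filled points lie below 0, down to Chek1 at -5.15.

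The Fanconi anaemia genes had a median log2 difference of -2.31 (-2.95 to -1.09 over the alternatives, the smallest with the mean of probe sets), and 7 of 9 were lower in neutrophils than in Mac1+ myeloblasts. The core complex, which attaches ubiquitin to the FANCD2 and FANCI pair, was not lowered evenly. Fancf, an adaptor of the complex, read log2 10.14, 10.25 and 9.98 in Mac1+ myeloblasts and 6.01, 6.02 and 5.84 in neutrophils, a difference of -4.17 (SE 0.14, adjusted p = 5.82e-08). Fancg and Fancm, a core subunit and the translocase that anchors the complex on DNA, fell by 3.35 and 3.07, and Fancc by 2.31. The dimmer probe set of Fancg was not called (log2 difference -0.24). Fanca, in contrast, read log2 9.47, 9.58 and 9.68 in Mac1+ myeloblasts and 9.18, 9.57 and 9.16 in neutrophils. These values overlap, and the difference of -0.28 (SE 0.21, adjusted p = 0.302) was not called, nor was the difference of -0.41 from Mac1- myeloblasts (adjusted p = 0.126) except without the third Mac1- array (adjusted p = 0.0302). Fance had a log2 difference of -0.66 that was not called (adjusted p = 0.12). It was called without the second neutrophil array (-0.92, adjusted p = 0.0464) and with the mean of its probe sets (-0.95, adjusted p = 0.0322), and its second probe set fell (-1.23, adjusted p = 0.0181 over all probe sets). Fance was lower in neutrophils than in Mac1- myeloblasts by 1.27 (adjusted p = 0.008).

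The substrate pair differed in size as well, on the brightest probe sets. Fanci fell by 3.84 on the log2 scale (SE 0.31, adjusted p = 6.83e-06) and Fancd2 by 1.96 (SE 0.30, adjusted p = 0.000555). Fancd2 kept log2 levels of 8.50 and 8.47 on the second and the third neutrophil arrays and 7.26 on the first, against 9.95 to 10.13 in Mac1+ myeloblasts. A dimmer probe set of Fancd2 fell by 3.09 (adjusted p = 0.000111 over all probe sets), and its remaining ones were not called. The dimmer probe set of Fanci was not called either (log2 difference 0.32), so the difference between the pair depends on the probe set. Fancl, the ubiquitin ligase itself, read log2 11.29, 10.06 and 8.51 in Mac1+ myeloblasts and 8.58, 7.27 and 7.32 in neutrophils. The third Mac1+ array was below the first neutrophil array, so the populations overlap although the difference of -2.23 (SE 0.66) was called (adjusted p = 0.0198). The call was lost when any of 4 arrays was left out, the first or second of Mac1+ or the second or the third of neutrophils (adjusted p from 0.0561 to 0.0638).

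All 4 mismatch repair genes were lower in neutrophils than in Mac1+ myeloblasts, with a median log2 difference of -3.88 (-4.21 to -1.98 over the alternatives, the smallest with the mean of probe sets). Exo1, the exonuclease that removes the faulty strand and also resects breaks, read log2 9.99, 10.17 and 10.41 in Mac1+ myeloblasts and 5.72, 5.08 and 5.40 in neutrophils, a difference of -4.79 (SE 0.20, adjusted p = 1.55e-07). Msh6, the partner that recognises single mismatches, read log2 11.47, 11.58 and 11.70 in Mac1+ myeloblasts and 5.28, 7.48 and 7.54 in neutrophils. The first neutrophil array was over 2 log2 units below the others, yet all 3 were over 3 units below the myeloblasts, and the difference was -4.82 (SE 0.52, adjusted p = 5.01e-05). Pms2, the endonuclease subunit, fell by 2.98 (SE 0.18). Msh3, which recognises larger loops in place of Msh6, fell by 0.96 (SE 0.21, adjusted p = 0.00482), and with the mean of its probe sets its difference was -0.21 and not called (adjusted p = 0.329).

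Base excision and single-strand break repair fell in 6 of 7 genes, with a median log2 difference of -3.41 between Mac1+ myeloblasts and neutrophils (-4.22 to -3.07 over the alternatives), and it held both genes that were already lower in Mac1+ than in Mac1- myeloblasts. Ung, the glycosylase that removes uracil from DNA, read log2 11.94, 12.27 and 12.03 in Mac1- myeloblasts, 10.25, 10.53 and 10.49 in Mac1+ myeloblasts, and 6.31, 4.58 and 5.37 in neutrophils. The 3 populations do not overlap. The first step was -1.66 (SE 0.37, 3.16-fold, adjusted p = 0.0189), the second -5.00 (SE 0.37, adjusted p = 4.12e-06) and the whole span -6.66. Its neutrophil intensities were 63.5, 7.9 and 25.2, at or under the array median on 2 of 3 arrays, and with offsets of 1 and 64 the whole span was -7.45 and -5.55. The call of the first step was lost without any 1 of the 6 myeloblast arrays (adjusted p from 0.0554 to 0.0809) and with an offset of 1 (adjusted p = 0.161). Parp1, the sensor that marks nicks with poly(ADP-ribose), read log2 11.43, 11.40 and 11.40 in Mac1- myeloblasts, 10.24, 10.31 and 10.53 in Mac1+ myeloblasts, and 7.19, 6.48 and 6.35 in neutrophils. Its first step was -1.05 (SE 0.22, adjusted p = 0.0141) and its second -3.69 (adjusted p = 1.09e-06).

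The first step of Parp1 was called with each of its 3 brighter probe sets, with log2 differences of -1.05, -2.06 and -0.98 (adjusted p = 0.0246, 0.000373 and 0.0353 over all probe sets). On the brightest probe set the call was lost without any of the Mac1- arrays or without the first or second Mac1+ array (adjusted p from 0.0568 to 0.0622). Apex1, the endonuclease that cuts beside the lost base, read log2 12.71, 12.85 and 12.60 in Mac1- myeloblasts and 11.75, 11.87 and 11.81 in Mac1+ myeloblasts. The populations do not overlap, but the difference of -0.91 (SE 0.27) was not called (adjusted p = 0.0663). Several other settings called it, with adjusted p values from 0.000466 with array weights to 0.0409. Between Mac1+ myeloblasts and neutrophils Apex1 had a log2 difference of -3.41, and its other probe sets gave -5.10 and -5.54.

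The remaining genes of the pathway differed in size and in evenness. Xrcc1, which holds ligase and polymerase together, fell by 2.31 (SE 0.14, adjusted p = 1.44e-06), and its neutrophil arrays were tight at log2 8.47, 8.44 and 8.30. Parp2, a second nick sensor, fell by 4.22 (SE 0.67, adjusted p = 0.000638), with log2 levels of 5.08 on the first neutrophil array and 8.12 and 7.89 on the others. Lig3, the ligase that seals the nick, fell by 2.82 on its brightest probe set (SE 0.54, adjusted p = 0.00204). Of its other 4 probe sets, 1 rose by 0.91 (adjusted p = 0.0173 over all probe sets), 1 fell by 0.67 (adjusted p = 0.0178) and the others were not called, so the direction for Lig3 depends on the probe set. Ogg1, the glycosylase for oxidised guanine, was the exception among the 7: it read log2 6.85, 6.66 and 6.56 in Mac1+ myeloblasts and 5.90, 7.24 and 7.33 in neutrophils, a difference of 0.14 (SE 0.34) that was not called. Without the first neutrophil array it was 0.60 and called (adjusted p = 0.0044).

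End joining held the largest rise between the myeloblasts. Xrcc5, the Ku80 subunit of the ring that clamps broken ends, read log2 6.71, 6.93 and 6.67 in Mac1- myeloblasts, 8.73, 9.0 and 8.93 in Mac1+ myeloblasts, and 5.27, 4.95 and 4.95 in neutrophils. The Mac1+ arrays lie above all others, 2.12 above Mac1- myeloblasts (SE 0.16, 4.34-fold, adjusted p = 4.13e-05) and 3.83 above neutrophils (adjusted p = 1.59e-07). This gene has a single probe set, so no second measurement bears on it. Xrcc6, the Ku70 subunit that pairs with it, read log2 10.92, 10.63 and 10.55 in Mac1- and 10.47, 10.69 and 10.90 in Mac1+ myeloblasts, a difference of -0.02 (SE 0.32), and then fell by 3.12 in neutrophils (adjusted p = 3.43e-05). Prkdc, the DNA-PK catalytic subunit, fell by 2.73 (SE 0.41, adjusted p = 0.00042). Lig4, the ligase of the pathway, was not called: its neutrophil arrays read log2 5.43, 7.26 and 8.35 and so lay on both sides of its Mac1+ levels of 7.64, 7.88 and 7.85. Without the third of them its difference of -0.77 became -1.44 and was called lower (adjusted p = 0.029).

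**Figure D3:**
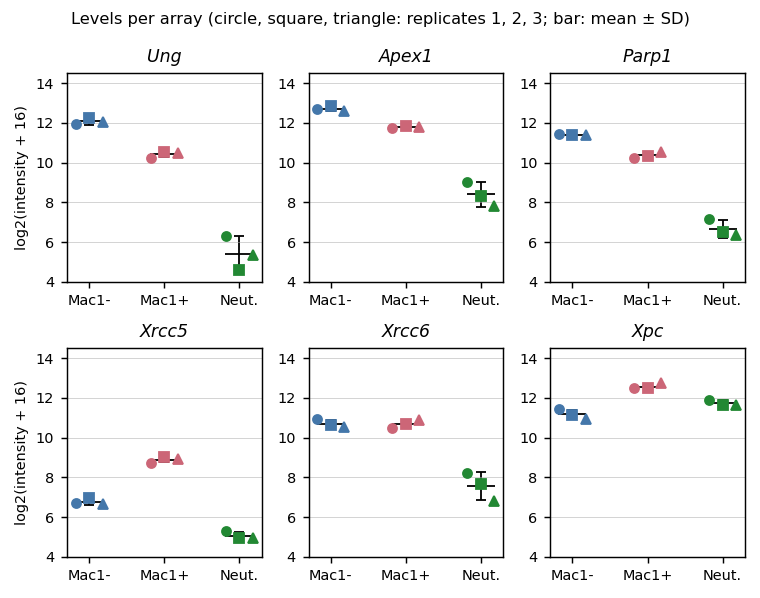
Levels of Ung, Apex1, Parp1, Xrcc5, Xrcc6 and Xpc on every array as log2(intensity + 16), by population, with the mean and SD of 3 arrays. Ung, Apex1 and Parp1 step down from Mac1- to Mac1+ myeloblasts and again to neutrophils, Xrcc5 and Xpc are highest in Mac1+ myeloblasts, and Xrcc6 is level in both myeloblast populations (log2 10.70 and 10.68).

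Nucleotide excision repair had the smallest median difference of the 7 pathways, but only 3 of its genes are members. Its 20 measured partners, described below, had a median log2 difference of -1.66, with 14 lower and 0 higher. Its 3 genes had a median log2 difference of -0.27 between Mac1+ myeloblasts and neutrophils, and this small value turned to 0.08 after quantile normalization. Xpc, the damage sensor that scans the genome, read log2 11.41, 11.15 and 10.94 in Mac1- myeloblasts, 12.48, 12.49 and 12.73 in Mac1+ myeloblasts, and 11.91, 11.66 and 11.63 in neutrophils. The populations do not overlap: it rose by 1.40 (SE 0.17, 2.63-fold, adjusted p = 0.000759), fell by 0.83 (adjusted p = 0.003) and ended 0.56 above Mac1- myeloblasts (adjusted p = 0.0205). The last call was lost when arrays were centred on their medians (log2 difference 0.40, adjusted p = 0.0692) and without the second or the third Mac1- array (adjusted p = 0.0613 and 0.0883). Ercc1, part of the nuclease that cuts on one side of the lesion, read log2 9.32, 9.42 and 9.44 in Mac1+ myeloblasts and 9.56, 9.05 and 8.77 in neutrophils, a difference of -0.27 that was not called (adjusted p = 0.331). Without the first neutrophil array, the highest of the 3, it was -0.48 and called (adjusted p = 0.0236), as was the difference from Mac1- myeloblasts (-0.73, adjusted p = 0.00274, against -0.52 with all arrays). With arrays centred on their medians both differences were called as well (adjusted p = 0.0408 and 0.00615). Without dim genes the one from Mac1- myeloblasts was called (adjusted p = 0.04435). Xpa, which verifies the lesion, had its first neutrophil array at log2 5.94 and the others at 8.44 and 8.65, around Mac1+ levels of 7.14, 7.42 and 7.55. The difference of 0.30 (SE 0.61) was not called, and without that array it was 1.17 and called higher (adjusted p = 0.000503), as it was against Mac1- myeloblasts (1.16, adjusted p = 0.000462). With all arrays, a dimmer probe set of Xpa was higher in neutrophils by 1.47 against Mac1+ myeloblasts (adjusted p = 0.00792 over all probe sets). Against Mac1- myeloblasts it was higher by 1.72 (adjusted p = 0.00291), and the remaining Xpa probe set was not called.

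Several of these results depend on the first neutrophil array. It lay over 1 log2 unit below the mean of the other neutrophil arrays for 11 of the 46 genes (Wrn, Fancd2, Fance, Fancg, Msh6, Nbn, Atr, Lig4, Parp2, Ogg1 and Xpa) and over 1 unit above it for 5 (Xrcc3, Fancl, Atm, Lig3 and Ung). The log2 ratio of 3′ over 5′ Gapdh control probe sets, a measure of RNA intactness, was 1.43 on this array and 0.94 to 1.30 on the other 8, while that of the beta-actin controls, 0.63, lay within the 0.61 to 1.32 of the others; the part of either in these results was not tested. A second set of genes varied among the Mac1+ arrays. Xrcc3, Fancl and Prkdc were over 1 unit above the mean of their replicates on the first Mac1+ array and over 1 unit below it on the third, where Lig3 was also low, at log2 11.90 against 13.67 and 13.53.

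**Figure D4:**
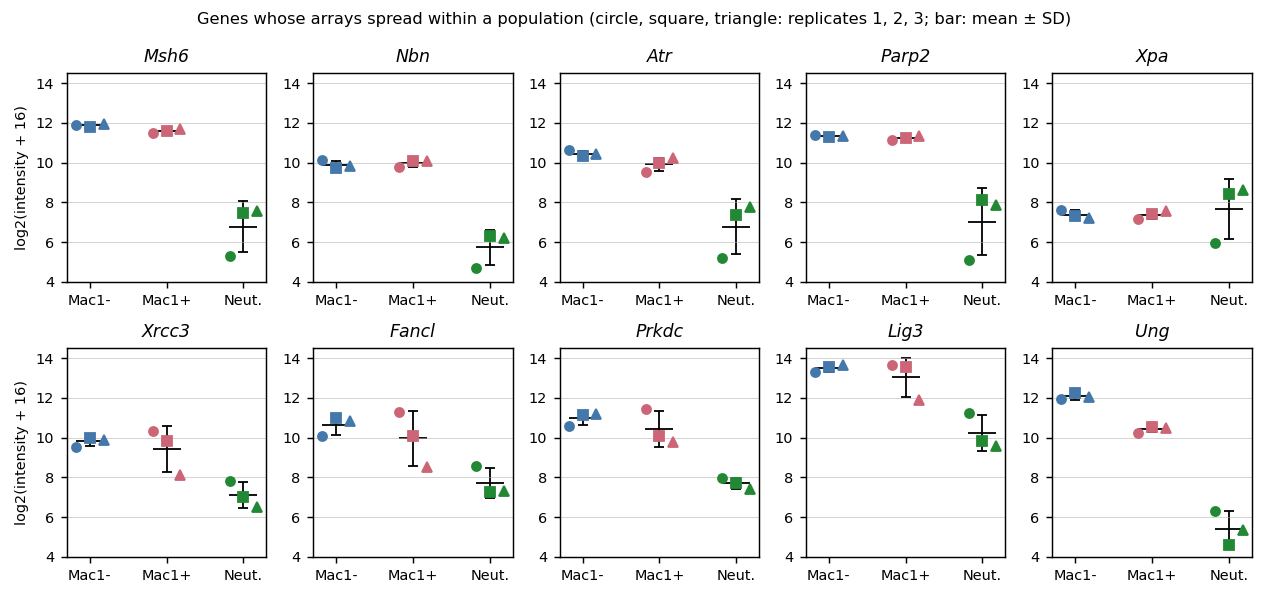
Levels of 10 repair genes, chosen after their values were seen, on every array as log2(intensity + 16), by population, with the mean and SD of 3 arrays. Msh6, Nbn, Atr, Parp2 and Xpa are low on the first neutrophil array (circle; Parp2 reads 5.08 there against 8.12 and 7.89), and Xrcc3, Fancl, Prkdc and Lig3 spread over the Mac1+ arrays.

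Other genes of the same pathways, from lists of 127 genes of which 117 were measured, mostly fell as well, least in end joining. Against Mac1+ myeloblasts, 89 of the 117 (76.1%) were lower in neutrophils and 3 higher, with a median log2 difference of -2.12. Of all genes, 28.4% were lower and 19.7% higher. Without the first neutrophil array 93 were lower and 6 higher. All 10 partners of mismatch repair were lower, among them Pold2, a subunit of DNA polymerase delta, by 5.25 on the log2 scale, and the clamp loader subunits Rfc5 and Rfc4, with log2 differences of -4.41 and -4.30. Besides Mlh3 and Pms1, that list holds only subunits of this polymerase and of the clamp loader. Of 21 signalling partners, 18 were lower, with Timeless and Tipin, which protect stalled forks, at -5.77 and -5.68 and the mitotic brake Wee1 at -5.35. Of 18 recombination partners 15 were lower, led by Rad51ap1, a cofactor of the recombinase, at -5.19, the helicase Recql at -4.62 and the paralog Rad51b at -3.86. Base excision partners were lower in 12 of 14, led by the replicative ligase Lig1 at -5.17, with Tdp1, which clears trapped topoisomerase from ends, at -3.59 and the flap nuclease Fen1 at -3.09.

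The other lists had lower shares. Fanconi and crosslink partners were lower in 9 of 15, and in 12 without the first neutrophil array, with the ubiquitin conjugating enzyme Ube2t at -4.66, the translesion polymerase Rev1 at -3.47 and Fancb at -3.09. Nucleotide excision partners were lower in 14 of 20, and the 3 largest falls were the RPA subunits that coat single strands in all repair and replication, Rpa2 at -5.03, Rpa1 at -4.74 and Rpa3 at -3.97. Translesion and direct reversal genes were lower in 8 of 11, led by the polymerases Polh at -4.21 and Poli at -2.83 and the ligase Rad18 at -2.65, and 1, Ube2b, was higher. End joining partners were lower in 3 of 8 (Aplf at -2.91, Setmar at -1.19, and Polq), and the last is no measured change, since its mean intensities of 6.93, 11.6 and 2.71 lie under the median of every array. This share of 37.5% stands beside 28.4% of all genes. The median log2 difference of these 8 was -0.33, against -2.93 for the 4 end joining members. Polm, a gap-filling polymerase, was higher by 0.74 (adjusted p = 0.048), a single higher gene that became 3 without the first neutrophil array. Rad9a, a subunit of the checkpoint clamp, and Ube2b, which works with Rad18, were higher by 1.08 and 1.52, and these 2 genes are named because with Polm they are the 3 that rose.

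Between the myeloblasts, 3 of the 117 (2.56%) were higher in Mac1+ cells and 4 (3.42%) lower, below the 6.31% and 5.51% of all genes. Without the first neutrophil array the counts became 13 and 8, where 12% of all genes were higher and 10.9% lower. The 3 that rose are Cdc25c, at a log2 difference of 1.21 (adjusted p = 0.0133), Cdc25a at 0.94 (adjusted p = 0.00332), both phosphatases that the checkpoint kinases restrain, and Uimc1, which brings BRCA1 to breaks, at 0.67 (adjusted p = 0.0207). The 4 that fell are Alkbh2, which reverses DNA alkylation, at -1.42 (adjusted p = 0.00352), the glycosylase Mpg at -1.01 (adjusted p = 0.0359), Pold2 at -0.77 (adjusted p = 0.0145) and Pms1 at -0.66 (adjusted p = 0.0232). In the other lists the genes nearest to a call were Mad2l2 at -0.56 (adjusted p = 0.0732) and Faap20 at 0.49 (adjusted p = 0.107), Eme1 at 0.33 (adjusted p = 0.201) and Sfr1 at -0.31 (adjusted p = 0.346), Nhej1 at 1.0 (adjusted p = 0.134) and Polm at 0.46 (adjusted p = 0.401), and Ddb2 at 0.89 (adjusted p = 0.154) and Rpa2 at -0.42 (adjusted p = 0.203).

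Over the whole span 82 of the 117 were lower in neutrophils than in Mac1- myeloblasts and 8 were higher. Of all genes, 30% were lower and 22.6% higher. Pold2 fell by 6.02 on the log2 scale. The genes leading each list were largely those named above: Timeless at -5.84, Tipin at -5.60 and Wee1 at -5.29 among signalling partners, Rpa2 at -5.45, Rpa1 at -4.79 and Gtf2h4, a TFIIH subunit, at -3.84 in nucleotide excision, and Lig1 at -5.05, Tdp1 at -3.55 and Fen1 at -3.26 in base excision. Rfc5 and Rfc3 were at -4.54 and -4.36, Rad51ap1, Recql and Rad51b at -5.04, -4.53 and -3.92, and Ube2t, Mad2l2 and Fancb at -4.35, -3.51 and -2.91. Alkbh2, Polh and Poli were at -3.87, -3.59 and -2.60, and in end joining Aplf and Setmar were at -3.19 and -1.89 while Polm was higher by 1.20. Of the 8 end joining partners, 3 were lower and 3 higher here, with a median log2 difference of 0.09.

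Proliferation markers fell alongside repair. All 19 measured markers were lower in neutrophils than in Mac1+ myeloblasts, with a median log2 difference of -4.44, led by the replicative helicase subunit Mcm3 at -5.98, the origin licensing factor Cdc6 at -5.41 and the spindle checkpoint kinase Bub1 at -5.23. Of all genes, 28.4% were lower in that comparison. The markers were also lower than in Mac1- myeloblasts, as were 30% of all genes. Mcm3 was at -6.21, Cdc6 at -5.83 and the ribonucleotide reductase subunit Rrm1 at -4.72. Between the myeloblasts 2 of 19 were higher in Mac1+ cells, the mitotic kinase Plk1 by 1.32 (adjusted p = 0.00186) and the cyclin Ccna2 by 0.68 (adjusted p = 0.0246), and 10 of 19 were higher without the first neutrophil array. The share of all genes that were higher was 6.31%, and 12% without that array. The part of proliferation in the change of the repair genes was not tested.

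Genes known to respond to p53, the transcription factor that damage signalling activates, did not follow the repair genes. Of 19 measured, 10 were higher in neutrophils than in Mac1+ myeloblasts, 3 were lower and the median log2 difference was 0.89. Over all genes, 19.7% were higher and 28.4% lower, with a median of 0.05. Sesn2, a stress-induced regulator of growth signalling, was higher by 5.85 (SE 0.37), the death receptor Fas by 4.64 (SE 0.17) and the growth arrest gene Gadd45a by 3.72 (SE 0.18). Against Mac1- myeloblasts 11 were higher and 3 lower, with Fas at 5.97, Trp53inp1, an autophagy and arrest gene, at 5.09 and Sesn2 at 4.56. There, 22.6% of all genes were higher and 30% lower. Between the myeloblasts 4 were higher and 1 lower in Mac1+ cells, and 5 and 5 without the first neutrophil array. The shares of all genes were 6.31% and 5.51%, and 12% and 10.9% without that array. Cdkn1a, the p21 inhibitor of the cell cycle, went the other way: it was 1.85 lower in Mac1+ than in Mac1- myeloblasts (adjusted p = 7.69e-05), where Perp and Trp53inp1 were higher by 2.05 and 1.74, and a further 0.49 lower in neutrophils (adjusted p = 0.0279). Many of these genes answer to other signals as well, and p53 activity was not measured.

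**Figure D5:**
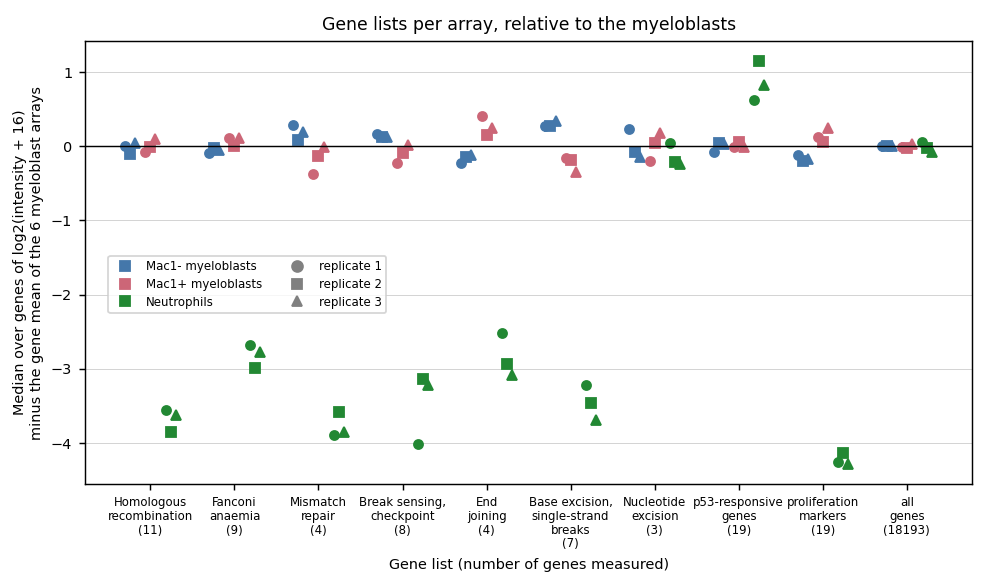
Median over the genes of each list, on every array, of log2(intensity + 16) minus the gene's mean over the 6 myeloblast arrays; colours are populations, symbols are replicates, and the number of genes stands under each list. Neutrophil arrays lie near -4 for proliferation markers and between -2.52 and -4.02 for the members of 6 of the 7 repair pathways. They lie near 0 for the 3 nucleotide excision repair members and above 0 for p53-responsive genes.

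Markers of other cells moved with these populations. Of 8 monocyte and macrophage markers, 7 were lower in Mac1+ than in Mac1- myeloblasts, and their summed intensity ran from 42994 to 46386 in Mac1-, from 3286 to 4287 in Mac1+ and from 13621 to 19879 in neutrophil arrays, with Cx3cr1 under 100 in Mac1+ myeloblasts and neutrophils. In the same contrast 6 of 7 neutrophil markers were higher, with summed intensities of 1232 to 2028 in Mac1-, 44115 to 51583 in Mac1+ and 65006 to 80936 in neutrophil arrays, and 2 of 5 early progenitor markers, Cd34 and Flt3, were lower, with sums of 32297 to 34144, 26914 to 32061 and 1993 to 8984. Ung and Parp1 fell and Xrcc5 and Xpc rose in this contrast, and the part of these markers in that was not tested. Of 6 B lineage markers, 3 (Ebf1, Cd79b and Igll1) were lower in neutrophils than in Mac1+ myeloblasts, and their summed intensity ran from 9051 to 13361, from 3443 to 13095 and from 1059 to 2679 in the same order. Cd79a, Pax5 and Vpreb1 had mean intensities under 100 in every population, whereas Ebf1, Cd79b and Igll1 were not under 100 in either myeloblast population. All 4 T and NK markers were under 100 in both myeloblast populations, and Cd3d was higher in neutrophils by a log2 difference of 2.78. Of 4 erythroid markers Klf1, Alas2 and Epor were under 100 in both myeloblast populations, Epor was higher in neutrophils, and Tfrc, the transferrin receptor that dividing cells also carry, was lower by 4.40 on the log2 scale, so that the sums ran from 4719 to 5461, from 7673 to 7980 and from 581 to 715. Of 6 eosinophil, basophil and mast cell markers 4 were lower in neutrophils than in Mac1+ myeloblasts, with sums of 1626 to 1894, 2859 to 3143 and 793 to 927. The part of these lists in the fall of the repair genes was not tested.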

How the data were processed

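Each of the 9 arrays has 45101 probe sets, deposited as linear intensity in the series' value table; the background correction, summary and scaling that the authors used are not given in the sources used here. Of these, 34945 carry 1 gene symbol in the platform annotation and 932 carry several, which were left out, as were control probe sets. The brightest probe set per gene was kept, log2(intensity + 16) taken, and 1 model of the 3 populations fitted with lmFit and eBayes (limma 3.58.1, R 4.3.3), with p-values adjusted over all 18193 genes and no further normalization. The steps were tested on simulated data. The text accounts for all 47 members; from each other list it names, per comparison, at most 3 called genes, those that differed most, and where none was called the 2 of lowest p. Polq, Rad9a, Ube2b, Mlh3, the lower step of Cdkn1a and single markers are named outside this rule, after their values were seen. Members and lists were chosen with earlier results of these data known. Mean intensities per array were 549.4 to 727.4, and 3 arrays per group limit the precision. Alternatives were quantile normalization, centring, offsets of 1 and 64, a filter on dim genes, other probe set choices, array weights, another variance prior, a replicate block, pairwise fits and leaving out each array. Promoters are RefSeq's, GRCm38.p6.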

Additional observations from a re-analysis of the deposited data

How the results depend on the processing

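The falls in neutrophils kept their counts under the 20 alternatives run: members lower than in Mac1+ myeloblasts numbered 35 to 38 when 1 array was left out and 37 to 39 otherwise, against 37, and those lower than in Mac1- myeloblasts 37 to 39 and 36 to 39, against 38. Small counts moved. Members higher than Mac1+ myeloblasts, 0 in the model of all arrays, were 1 with quantile normalization, 1 with the mean of probe sets, 3 with array weights and 0 to 3 with 1 array left out. Members higher than Mac1- myeloblasts, 2, were 1 with centring, 4 with array weights and 1 to 4 with 1 array left out. Between the myeloblasts the 2 higher members became 7 with array weights, 6 with only the 2 populations fitted and 2 to 6 with 1 array left out, and the 2 lower ones 1 with an offset of 1, 7, 6 and 0 to 4. The array weights gave the first neutrophil array 0.068 and the second 4.216. No called member changed sign. Of the single members' values, 2679 kept their side of the threshold, 56 gained a call and 25 lost one. The mean of probe sets moved the members' median from -3.11 to -1.75, and centring moved the median of all genes between Mac1+ myeloblasts and neutrophils from 0.05 to -0.15. In that comparison, 21 of the 31 members with several probe sets had calls that differed between them. For 2 of these, Brca1 and Lig3, the calls were opposite. With the replicate block 37 members were lower and 0 higher in neutrophils than in Mac1+ myeloblasts, and 2 and 2 between the myeloblasts; same-numbered samples correlated at -0.31 to 0.13 in their deviations, with 1 of 9 pairs over 0.1, so the numbers were not taken to pair samples. The cause of these moves was not tested.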
